A study of Mus musculus with 16 samples.

Results

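Cells with high surface signal for both CD41 and CD61 were picked out of 3 mouse bone marrow libraries in which antibody tags and DNA methylation had been read from the same single cells. A cell was eligible if it was in the methylation file and had at least 100 unique molecular identifiers (UMI) over its antibody tags. For each cell, ln(UMI + 1) of every tag was taken relative to the mean over that cell's tags. A cell was included when it lay in the top 20% of its library for CD41 and in the top 20% for CD61, unless it was also in the top 25% for both CD150 and Sca-1. This gave 187 of 7120 eligible cells, in a series of 95930 cells from 16 libraries. They were 76 of 2675 eligible cells in main mouse 3, 33 of 1342 in main mouse 4 and 78 of 3103 in replicate mouse 1. These are 2.84%, 2.46% and 2.51% of the eligible cells.

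CD41 is integrin alpha IIb and CD61 is integrin beta 3. Together they form the fibrinogen receptor of megakaryocytes and platelets, which binds fibrinogen when platelets aggregate. Neither chain is exclusive to that lineage, since CD41 is also found on some early blood progenitors and CD61 also pairs with integrin alpha v on other cells, myeloid cells among them. CD9, a tetraspanin, is abundant on megakaryocytes and platelets, and CD150 and Sca-1 are widely used to enrich mouse hematopoietic stem cells.

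DNA methylation was read by scTAM-seq on the Tapestri instrument. In this assay a methylation-sensitive restriction enzyme cuts unmethylated target sites before the amplicons are amplified, so that a read from an amplicon marks a methylated copy. Main mice 3 and 4 belong to the main LARRY experiment and replicate mouse 1 to its repeat. LARRY is a system of lentiviral barcodes for following clones. All 3 are labelled bone marrow with immune cells. For these 3 libraries the sources used here do not give strain, age, sex, the cell sort or any treatment. All cells compared came from within the same libraries.

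The 3 libraries held 5478, 3385 and 4687 cells in the methylation files, with medians of 45004 to 61981 reads per cell. An amplicon was counted as methylated in a cell with 1 or more reads, and the share of cells with a read is the value given throughout. Of 663 amplicons, 77 were read in 90% or more of the cells in each of the 16 libraries, and those tell whether a cell was read at all. The selected cells had reads at 97.1%, 97.1% and 99.1% of these 77 on average, and the other cells at 97.2%, 97.1% and 99.0%. Pairs of the 3 libraries shared from 5 to 12 cell barcodes. Doublets were not called.

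The 2 tags that define the cells were at most weakly related. If they were unrelated, 4% of cells would be in the top 20% for both. Before the CD150 and Sca-1 exclusion the observed share was 3.22% in main mouse 3, 2.46% in main mouse 4 and 5.00% in replicate mouse 1. Over all eligible cells, which share a staining and a depth within each library, Pearson's r between centred CD41 and CD61 was -0.02, -0.08 and 0.07. Only replicate mouse 1 was above 4% and above 0. Taking each cell's mean over its tags away pulls r between tags below 0 by construction, and r without any relation was not estimated. The tag data show no separate group of cells carrying both chains, and the cells are called here by their rule, CD41-high CD61-high, and not by a lineage.

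**Figure D1:**
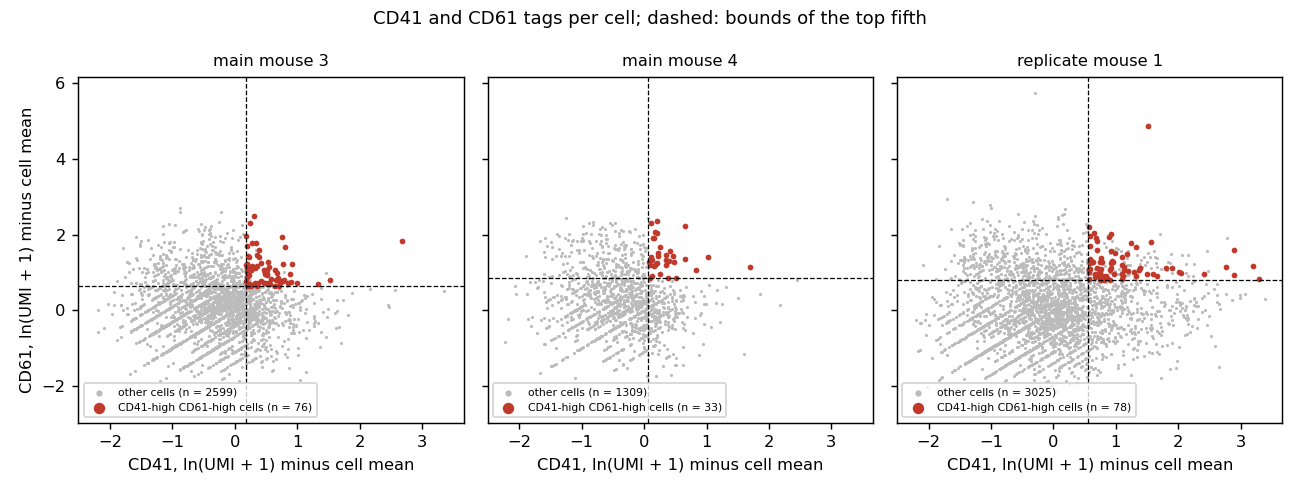
Each point is 1 eligible cell, plotted by centred ln(UMI + 1) of CD41 (horizontal) and CD61 (vertical), with 1 panel per library. Red points are the 76, 33 and 78 selected cells, and dashed lines bound the top 20% of each tag. The red points continue the main cloud and do not stand apart from it.

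The cells just inside and just outside the bounds were nearly the same. For CD41, the lowest value inside and the highest outside were 0.1716 and 0.1707 in main mouse 3, 0.064 and 0.062 in main mouse 4, and 0.5471 and 0.5469 in replicate mouse 1. For CD61 they were 0.6307 and 0.6305, 0.846 and 0.845, and 0.798 and 0.796. A CD41 value inside the bound could rest on as few as 2 UMI in both main mice and 4 in replicate mouse 1. The smallest CD61 count inside was 4, 5 and 4 UMI.

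Because tag values chose the cells, the tags are given as a description. Median CD41 was 6 UMI in the selected cells against 2 in the other cells of main mouse 3, 5 against 3 in main mouse 4, and 20 against 4 in replicate mouse 1. Median CD61 was 11 against 4, 16 against 6 and 21.5 against 5. CD9, which the rule did not use, was higher in all 3 libraries, at 8.5 against 7, 22 against 11 and 33 against 16 UMI. On the centred scale the CD9 difference was 0.45, 0.93 and 0.62, in the same order of libraries. All 3 tags of the megakaryocyte list were thus higher, 2 of them by selection. High CD9 was not particular to the selected cells. Cells in the top 25% for both CD150 and Sca-1 had CD9 medians of 11, 11 and 39.5 UMI. These were above the selected cells in main mouse 3 and replicate mouse 1 and below them in main mouse 4.

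The selected cells were not alike in the 3 libraries for the remaining tags. c-Kit, the stem cell factor receptor of progenitors, had medians of 14 against 18 UMI in main mouse 3, 5 against 17 in main mouse 4 and 27 against 26 in replicate mouse 1. On the centred scale, which is meant to take out a cell's total, c-Kit had differences of -0.10, -0.60 and -0.25. Centred differences sum to 0 over the tags of a library. Selecting cells high for CD41 and CD61 therefore lowers the other tags on average by construction. The size of that shift was not estimated, so small negative differences do not show a lower level. CD27 had medians of 12.5 against 11, 1 against 7 and 21 against 16 UMI, and its centred difference was -0.01, -0.84 and 0.02, so that it was low in main mouse 4 alone. CD49f, the integrin alpha 6 chain, had medians of 56 against 57, 25 against 46 and 121.5 against 60 UMI, and centred differences of 0.25, -0.07 and 0.45. I-A/I-E, the major histocompatibility complex class II of dendritic and B cells, had centred differences of -0.45, -0.41 and -0.16, the last of them small. CD135, the receptor of FLT3 ligand on multipotent progenitors, had centred differences of -0.28, -0.10 and -0.54. Its medians were only 1 against 1, 1 against 2 and 1 against 1 UMI, and at such counts centring does not take out a cell's total. In replicate mouse 1, Ter-119 and FceRIa, also at low counts, had similar differences of -0.49 and -0.52. Lower CD135 is therefore not shown.

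Several markers of other lineages had low counts in both populations. Ter-119, of erythroid cells, had a median of 1, 1 and 0.5 UMI in the selected cells against 1, 2 and 1. FceRIa, of mast cells and basophils, had 0.5, 0 and 0 against 1, 1 and 0. Not all were low, since I-A/I-E had medians of 9, 5 and 14 UMI against 17, 14 and 15. CD48, on the multipotent and lymphoid list, had 35, 16 and 56 against 40, 38 and 66. CD115, the receptor of colony-stimulating factor 1 on monocytes, had medians of 1, 1 and 2 UMI and was at 2 in the other cells of each library. CD16/32, the Fc gamma receptors of myeloid progenitors, had a median of 1 in both populations of main mice 3 and 4, and replicate mouse 1 had no such tag. CD201 and CD150, both of stem cells, had medians of 0 to 3 UMI.

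**Figure D2:**
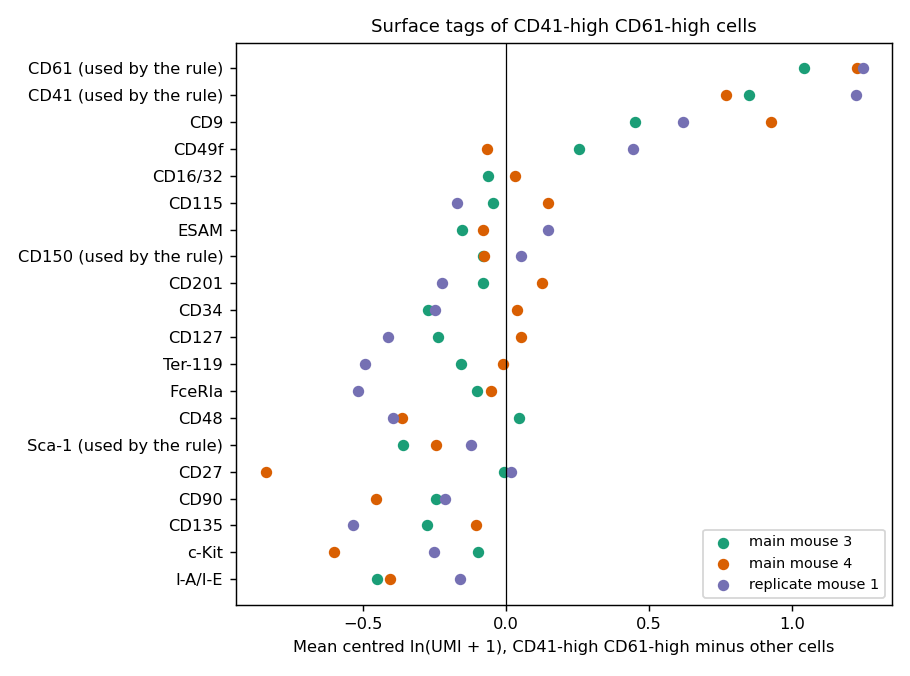
Each point is the mean centred ln(UMI + 1) of a tag in CD41-high CD61-high cells minus that in the other cells of the same library, with 1 row per tag and 1 colour per library. CD41, CD61 and CD9 are to the right of 0 in all 3 libraries, while c-Kit and CD27 are farthest to the left in main mouse 4 (-0.60 and -0.84).

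Depth differed between the populations, and in opposite ways. The median total was 181.5 tag UMI in the selected cells against 216 in the other cells of main mouse 3, 139 against 214 in main mouse 4, and 498.5 against 295 in replicate mouse 1. Median amplicon reads per cell were 39250 against 46030, 31000 against 36500, and 76140 against 68000. Their part in the methylation differences was not tested beyond the thinned, matched and covariate analyses named with the results.

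Few amplicons passed a test for a methylation difference between the CD41-high CD61-high cells and the other cells of their libraries. Of 596 amplicons with a mean share of 2 to 98%, 6 (1.01%) passed at an adjusted p below 0.05 in edgeR's quasi-likelihood test, 3 higher and 3 lower, and 63 had an unadjusted p below 0.05. The test compares how many cells had and lacked a read, keeps each library as a block, and adjusts by Benjamini-Hochberg over all 596. Its effect is a log odds difference (natural log), and its replicates are the 3 libraries. The median log odds difference over all 596 was 0.02. On simulated data with these numbers of cells, the test called 45.6% of amplicons with a log odds difference of 0.5 in size. It called 90.9% of those at 1. With an SD of 0.3 between libraries these were 22.1% and 69.7%. In the simulation only 396 of the 596 amplicons had no planted difference, and many true differences ease the adjusted threshold. Recovery with fewer true differences was not simulated, so these rates do not carry over to the data. A small count does not by itself show that few amplicons differ. Amplicons are known here only by their panel names, with no gene or position.

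Of the 3 higher amplicons, AMPL376551 had a read in 98.7% of the 76 selected cells of main mouse 3, 93.9% of 33 in main mouse 4 and 94.9% of 78 in replicate mouse 1. Other cells had 87.2%, 85.2% and 84.7%. The means were 95.8% ± 2.51 (SD, n = 3 libraries) and 85.7% ± 1.36, and the 2 sets of 3 values did not overlap. The log odds difference was 1.45 with a standard error (SE) of 0.33 (edgeR, adjusted p = 0.0255).

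AMPL355546 was read in 96.1%, 97.0% and 85.9% of the selected cells and in 78.5%, 81.5% and 73.5% of the others, which did not overlap either. Its log odds difference was 1.26, SE 0.27 (edgeR, adjusted p = 0.0227). AMPL371589 was read in 88.2%, 90.9% and 78.2% against 70.3%, 73.4% and 64.9%, with a difference of 0.93, SE 0.22 (edgeR, adjusted p = 0.0255). Replicate mouse 1 was the lowest library at both amplicons, in selected and in other cells.

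Of the 3 lower amplicons, AMPL371729 was read in 40.8%, 27.3% and 56.4% of the selected cells and in 64.3%, 60.0% and 72.4% of the others, without overlap. The means were 41.5% ± 14.6 and 65.6% ± 6.30 (SD, n = 3 libraries), and the log odds difference was -0.94, SE 0.18 (edgeR, adjusted p = 0.0163). AMPL376597 was read in 71.1%, 57.6% and 89.7% against 87.0%, 85.9% and 92.4%. AMPL388421 was read in 17.1%, 18.2% and 43.6% against 39.0%, 37.8% and 58.2%. At these last 2 the selected cells of replicate mouse 1 lay above the other cells of a main mouse, though below those of their own library. Their log odds differences were -0.94, SE 0.23, and -0.85, SE 0.19 (edgeR, adjusted p = 0.0345 and 0.0255).

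Few cells stand behind these shares. With 33 selected cells in main mouse 4, the exact (Clopper-Pearson) 95% interval was 13.3 to 45.5% at AMPL371729 and 39.2 to 74.5% at AMPL376597. In replicate mouse 1, the interval of AMPL376597 in selected cells was 80.8 to 95.5%, which includes the 92.4% of the other cells. Such intervals cover counting error only.

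The call count depended on the library and on the test. Without main mouse 3 it was 0 (31 at an unadjusted p below 0.05), without main mouse 4 it was 0 (39), and without replicate mouse 1 it was 16, with 7 higher and 9 lower. It was 13 with every cell thinned to 15992 reads, 0 with other cells matched on tag UMI (a comparison added after the data were seen) and 0 with depth as covariates. limma on library log odds ratios gave 0 calls and 57 amplicons at an unadjusted p below 0.05. All 6 amplicons kept their sign in each of these analyses.

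**Figure D3:**
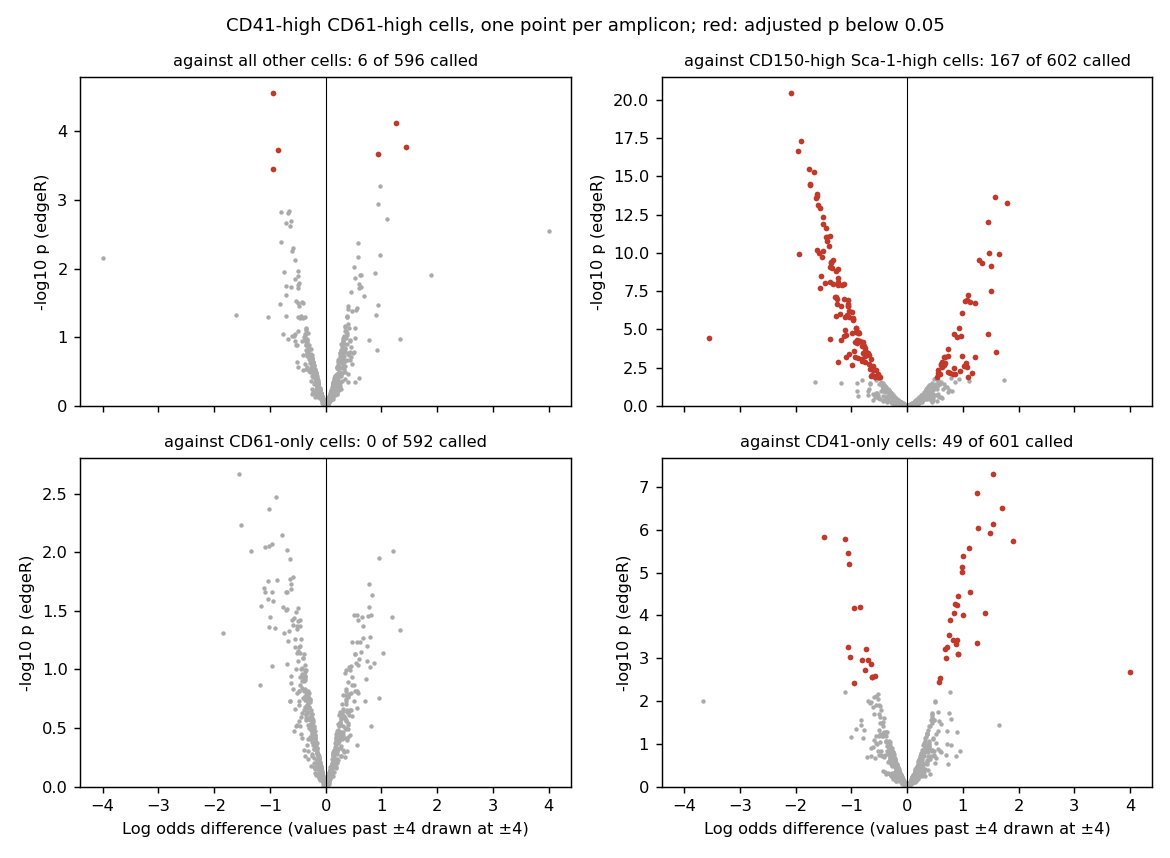
Each point is 1 amplicon, with the log odds difference between CD41-high CD61-high cells and another population (horizontal, higher in the selected cells to the right) and -log10 of the unadjusted edgeR p (vertical, with a scale of its own in each panel). Red points have an adjusted p below 0.05: 6 against all other cells, 167 against CD150-high Sca-1-high cells, 0 against CD61-only cells and 49 against CD41-only cells.

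The mean level over many sites differed in sign between libraries. Over 404 amplicons of intermediate methylation (a mean of 25 to 90% in bone marrow), the selected cells averaged 63.4%, 62.7% and 70.9%, and the other cells 63.8%, 65.0% and 69.8%. The difference was -0.41, -2.31 and 1.19 percentage points, or -0.51 ± 1.75 (SD, n = 3 libraries). An exact two-sided sign-flip permutation test gave p = 0.75, where 3 libraries cannot go below 0.25. Selected cells also spread about as widely as the others, with an SD over cells of 11.1, 10.9 and 9.53 against 11.3, 12.2 and 9.42 percentage points.

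The CD41-high CD61-high cells were next set against cells that were high for 1 of the 2 tags, with the same exclusion on CD150 and Sca-1. There were 427, 232 and 426 cells high for CD61 only and 424, 222 and 409 high for CD41 only. Against CD61-only cells, 0 of 592 amplicons passed in edgeR (0%), with 58 at an unadjusted p below 0.05, and limma gave 0 with 46. Against CD41-only cells, 49 of 601 passed (8.15%), 32 higher and 17 lower in the cells high for both tags. The medians of the log odds difference, over every amplicon tested, were -0.06 and 0.01. The difference between the 2 counts was not itself tested.

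The call count against CD61-only cells was 7 without main mouse 3 and 3 without main mouse 4. Against CD41-only cells it was 25, 21 and 63 without main mouse 3, main mouse 4 and replicate mouse 1, 19 by limma and 29 after thinning.

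The 6 amplicons that passed against all other cells also passed against CD41-only cells, but both comparisons use the same selected cells, and the CD41-only cells are among the other cells, so this is no separate support. AMPL376551 was read in 80.9%, 75.2% and 79.5% of CD41-only cells and differed by 1.89, SE 0.31 (edgeR, adjusted p = 0.000122). AMPL376597 was read in 90.1%, 91.4% and 96.8% of them and differed by -1.49, SE 0.24 (edgeR, adjusted p = 0.000122). At AMPL388770 the selected cells had 40.8%, 27.3% and 64.1% against 62.5%, 58.1% and 84.8%, a log odds difference of -1.06, SE 0.18 (edgeR, adjusted p = 0.000193). AMPL376721 was read in every selected cell and in 96.2%, 97.3% and 96.6% of CD41-only cells, and its call (edgeR, adjusted p = 0.0287) was lost on leaving out any 1 of the 3 libraries, at 2 or more and 5 or more reads, and after thinning.

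The distance of the selected cells from the CD61-only cells of their library was not the same in all 3 libraries. The examples below are from the 6 amplicons, which were chosen with these same cells. The share of all amplicons with such a pattern was not counted, and a difference between the experiments was not tested. AMPL371589 was read in 90.9%, 94.4% and 92.7% of CD61-only cells and in 57.8%, 56.8% and 49.6% of CD41-only cells. The selected cells of the main mice, at 88.2% and 90.9%, were close to the first, and those of replicate mouse 1, at 78.2%, were between both. AMPL376597 had 72.8%, 59.1% and 72.8% in CD61-only cells, against 71.1%, 57.6% and 89.7% in the selected cells.

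No test separated the selected from the CD61-only cells at these sites. The log odds difference was -0.76, SE 0.29, at AMPL371589 (edgeR, adjusted p = 0.484) and -0.63, SE 0.37, at AMPL355546 (edgeR, adjusted p = 0.666). It was 0.07, SE 0.25, at AMPL371729, 0.31, SE 0.28, at AMPL376597 and 0.35, SE 0.33, at AMPL388421. AMPL376551 was above the 98% limit and not tested there. A p that misses the threshold does not show that the 2 populations were alike.

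**Figure D4:**
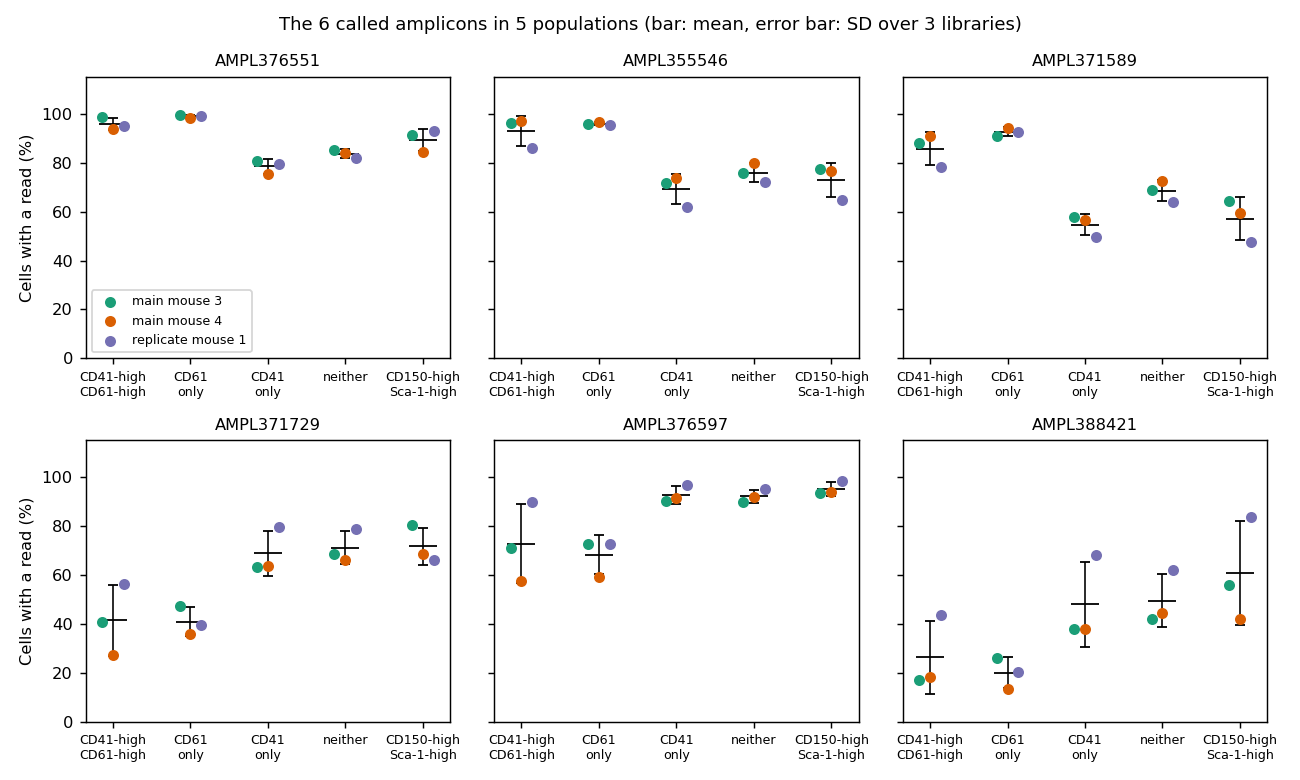
Share of cells with a read (%) at the 6 amplicons called against all other cells, in 5 populations. Points are the 3 libraries, horizontal bars their mean and error bars the SD. The cells high for neither and the CD150-high Sca-1-high cells overlap. At AMPL371589 the CD61-only cells are at 90.9 to 94.4% and the CD41-only cells at 49.6 to 57.8%, with the CD41-high CD61-high cells at 78.2 to 90.9%.

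Each tag alone was then compared with cells high for neither, a pair of comparisons added after the data were seen. The cells high for neither had no exclusion on CD150 and Sca-1, unlike the CD61-only and CD41-only cells. They thus include CD150-high Sca-1-high cells, whose part in these counts was not tested. CD61-only cells differed from the 1691, 837 and 2016 cells in neither top 20% at 235 of 594 amplicons (39.6%), 121 higher and 114 lower, by edgeR. CD41-only cells differed from them at 29 of 597 (4.86%), 6 higher and 23 lower, but limma left 1 call, lower, and a minimum of 5 reads left 18. The 2 comparisons share the cells high for neither, so their values are given side by side. AMPL371589 was 1.75, SE 0.14, for CD61 and -0.58, SE 0.09, for CD41, and AMPL376551 was 3.03, SE 0.22, and -0.31, SE 0.11.

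The largest differences of CD61-only cells included AMPL366082, read in 96.7%, 98.7% and 96.2% of them and in 72.5%, 74.2% and 65.6% of cells high for neither (log odds difference 2.62, SE 0.16). The selected cells had 96.1%, 90.9% and 75.6% there. The largest decrease of CD41-only cells was at AMPL365895, read in 60.1%, 62.2% and 49.9% of them and in 78.6%, 80.2% and 75.6% of cells high for neither (log odds difference -0.99, SE 0.10). The CD61-only count fell to 154 without main mouse 4 and to 57 without replicate mouse 1, and the CD41-only count to 19 without main mouse 3.

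Against cells in the top 25% for both CD150 and Sca-1, the marker pair of stem cells that the rule excluded, the CD41-high CD61-high cells differed at many sites. There were 138, 64 and 236 such cells. Of 602 amplicons, 167 passed (27.7%), 48 of them higher and the rest lower in the CD41-high CD61-high cells, with a median log odds difference of -0.02 over all 602. The count was 134 without main mouse 3, 147 without main mouse 4 and 104 without replicate mouse 1. By limma on library log odds ratios it was 117, 24 higher and 93 lower, with a lowest adjusted p of 0.00471.

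Decreases at AMPL371668 and AMPL366093 were seen in each library. AMPL371668 was read in 14.5%, 12.1% and 48.7% of the selected cells and in 61.6%, 54.7% and 86.9% of CD150-high Sca-1-high cells (edgeR, log odds difference -2.08, SE 0.22, adjusted p = 2.15e-18). AMPL366093 was read in 7.89%, 6.06% and 38.5% against 39.9%, 37.5% and 80.5% (edgeR, log odds difference -1.96, SE 0.23, adjusted p = 4.75e-15). Both amplicons were far higher in replicate mouse 1 than in the main mice, in both populations, so the difference within a library and not the level carries the comparison. AMPL388689 had the largest fitted decrease, -3.55, but was read in every CD150-high Sca-1-high cell and in 97.4%, 81.8% and 100% of the selected cells. That fitted value depends on the prior count and is no bound. In replicate mouse 1 AMPL388689 did not decrease, and its sign there came only from the 0.5 added to each count.

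Increases were led by AMPL366082, with 96.1%, 90.9% and 75.6% in the selected cells and 70.3%, 59.4% and 38.6% in CD150-high Sca-1-high cells (edgeR, log odds difference 1.79, SE 0.24, adjusted p = 2.64e-12). AMPL366159 followed, with 96.1%, 93.9% and 82.1% against 76.8%, 70.3% and 50.8% (edgeR, log odds difference 1.64, SE 0.25, adjusted p = 2.47e-09). AMPL376501 rose from 92.0%, 93.8% and 86.4% to 98.7%, 100% and 96.2% (edgeR, log odds difference 1.59, SE 0.44, adjusted p = 0.00159). Of the 6 amplicons called against all other cells, which include these cells, 5 also passed here, and AMPL376551 did not (edgeR, log odds difference 0.94, SE 0.39, adjusted p = 0.0588).

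Within the selected cells, each library was split at its median for 5 tags. Of 597 amplicons, the cells above and below the median for CD41, CD61, CD9 and c-Kit differed by edgeR at 0 (0%) each, with 54, 28, 40 and 28 at an unadjusted p below 0.05. limma gave 0 for each as well, with 62, 33, 34 and 27 unadjusted. The split on CD150, a tag used by the rule, gave 7 amplicons (1.17%), all higher above the median, with 68 unadjusted, 56 higher and 12 lower. The median log odds difference over all 597 was also above 0 in this split (0.17) and in those on CD41 (0.21), CD61 (0.07), CD9 (0.25) and c-Kit (0.15).

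Most of the cells with a read at the 3 named amplicons were in replicate mouse 1. There AMPL365902 was read in 21 of 39 cells above the CD150 median (53.9%) and 2 of 39 below it (5.13%). In main mouse 3 it was read in 2 of 38 and 0 of 38 cells, and in main mouse 4 in 1 of 16 and 0 of 17, where a count of 0 allows a share of up to 7.89% and 17.6%. Its log odds difference was 2.97, SE 0.68 (edgeR, adjusted p = 0.00708).

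AMPL365990 was read in 23 of 39 against 5 of 39 cells of replicate mouse 1 and AMPL371723 in 26 of 39 against 4 of 39 (edgeR, adjusted p = 0.0181 for both). In main mouse 3 they were read in 5 of 38 against 0 of 38 and in 4 of 38 against 1 of 38 cells, and in main mouse 4 in 1 of 16 against 1 of 17 and in 2 of 16 against 2 of 17 cells. The CD150-high Sca-1-high cells of replicate mouse 1 had 62.3%, 69.1% and 67.4% at the 3 amplicons. In that library 77 of the 155 cells in the top 20% for CD41 and CD61 were removed as high for CD150 and Sca-1, against 10 of 86 in main mouse 3 and 0 of 33 in main mouse 4. The 7 calls were lost without replicate mouse 1 and without main mouse 4 (0 each), and the count was 9 without main mouse 3.

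The 6 amplicons could also be followed over whole libraries. The series has 12 bone marrow libraries, 3 of which held the selected cells. By their titles they also include native marrow, young and old marrow of an aging experiment and marrow of a transplantation experiment. Over all cells of these 12, AMPL376551 ranged from 73.8 to 93.1% with a median of 81.8%. The transplantation library was the lowest there and a young library the highest. AMPL376597 ranged from 72.6 to 91.5% with a median of 79.8%. The library of mature myeloid cells from bone marrow and peripheral blood was lower than all 12 at AMPL371729 (30.3%), AMPL376597 (42.9%) and AMPL388421 (13.5%). It had 92.4% at AMPL376551, 73.5% at AMPL355546 and 82.3% at AMPL371589, the last above all 12. The library of mature immune cells from bone marrow and spleen was also below all 12 at AMPL376597 (67.29%). It was above all 12 at AMPL376551 (97.16%) and AMPL371589 (87.65%). Lung endothelial cells had 20.3% at AMPL376551 and 98.2% or more at AMPL371729 and AMPL376597. Each of these tissues is a single library, with no replicate check.

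The selected cells' differences were also set beside that myeloid library over all 596 amplicons. The myeloid shift was its share minus the mean of the 3 LARRY bone marrow libraries without selected cells. Pearson's r across amplicons, which are not independent and share a panel, was 0.39 in main mouse 3, 0.36 in main mouse 4 and 0.13 in replicate mouse 1 for selected minus other cells. For CD61-only cells minus cells high for neither it was 0.48, 0.54 and 0.53. The library of mature myeloid cells from lung gave lower values, 0.11, 0.0017 and 0.13 for selected minus other cells and 0.066, 0.10 and 0.13 for CD61-only cells minus cells high for neither. The library of mature immune cells from bone marrow and spleen gave 0.30, 0.22 and 0.11 for selected minus other cells. For CD61-only cells minus cells high for neither it gave 0.43, 0.41 and 0.46, each below the value of the first myeloid library. The share of myeloid cells in this immune library was not determined. Whether the resemblance is particular to myeloid cells was not tested. For the lung endothelial library r was -0.17, -0.23 and 0.25 for selected minus other cells. It was -0.24, -0.24 and -0.19 for CD61-only cells minus cells high for neither.

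Among the 6 amplicons, the higher ones tended to be read in the same cells, as did the lower ones, while higher and lower ones tended to be read in different cells. The phi coefficient, Pearson's r between the yes or no calls of 2 amplicons over the cells of a library, averaged 0.57, 0.61 and 0.58 among the 3 higher amplicons in main mice 1 and 2 and replicate mouse 2, which held no selected cells. Among the 3 lower amplicons it averaged 0.34, 0.32 and 0.27, and between higher and lower ones -0.18, -0.20 and -0.15. The median over all pairs of intermediate amplicons was 0.04, 0.03 and 0.05 in these libraries. Over the 12 bone marrow libraries, young, old and transplantation marrow among them, the higher amplicons averaged 0.31 to 0.76 and the lower ones 0.26 to 0.44. In lung endothelial cells the 3 values were 0.00, 0.04 and 0.00. Cells of a library share its depth, and these coefficients are a description.

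**Figure D5:**
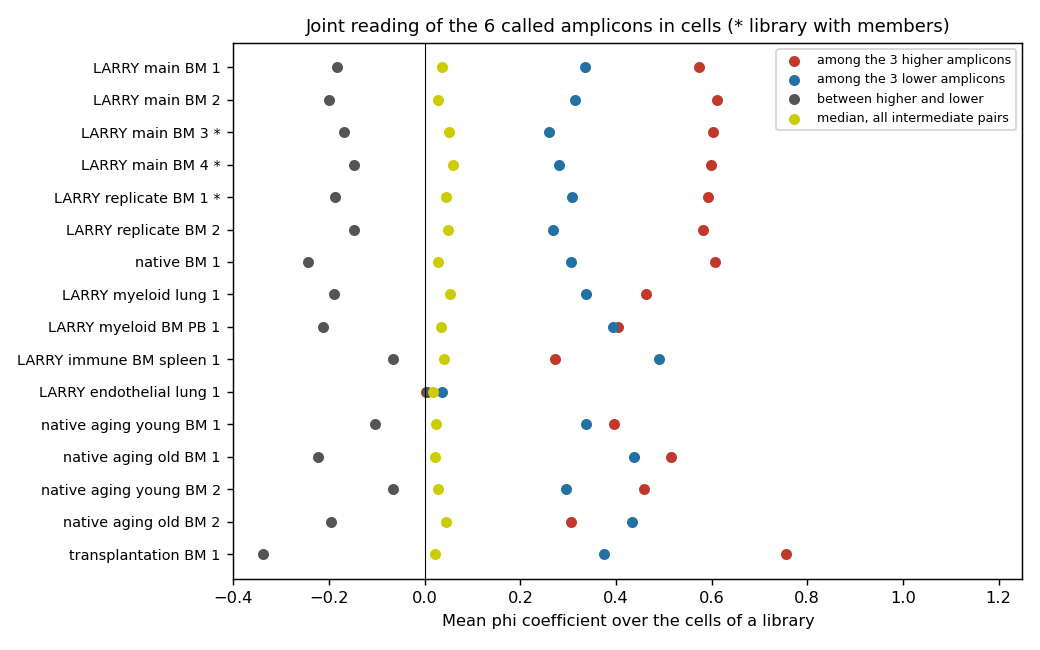
Mean phi coefficient (horizontal, no unit) over the cells of each of the 16 libraries, for pairs among the 3 higher amplicons (red), among the 3 lower ones (blue), between higher and lower ones (grey), and the median over all pairs of intermediate amplicons (yellow). Asterisks mark the libraries that held the selected cells. In the bone marrow libraries red lies between 0.31 and 0.76, blue between 0.26 and 0.44, and grey below 0.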

How the data were processed

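The authors deposited tables of read counts per cell and amplicon and of UMI counts per cell and antibody tag, not normalized, per the file headers. Per the submitters' processing notes, mm10 was the build. Which aligner, cell caller and cell filters were used was not given in the sources used here, and amplicon positions are not used here. Groups came from the sample titles.

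The selected cells and comparison lists were chosen with earlier results of these data known. Replicate mouse 1 had 19 tags and main mice 3 and 4 had 20, so cells were centred over different sets. Each library, not cell, was 1 replicate. Each of the 3 libraries was labelled as its own mouse. The edgeR p-values rest on the cell counts and on a spread between libraries that is estimated with all amplicons together. They do not measure the spread of 1 amplicon over its 3 libraries alone. Each library was split into populations, and counts of cells having or lacking a read were tested with edgeR 4.0.16 (R 4.3.3), with the library as a block, over amplicons whose mean share was 2 to 98%, at an adjusted p of 0.05. The library is the natural pair because both populations come from the same mouse. Amplicons were named by rule: up to 10 of each sign against all other cells and 3 of each sign elsewhere, by largest effect among calls with 1 sign in all 3 libraries. The CD61-only and CD41-only comparisons with cells high for neither, and the match on tag UMI, were added after the data were seen. Alternatives used limma 3.58.1 and DESeq2 1.42.0, other read minimums (2, 5 and 10), thinning and left-out libraries. The fit was tested on simulated data. Thinning left out 1.98%, 10.1% and 2.26% of cells.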

Additional observations from a re-analysis of the deposited data

Results flagged for a closer look

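The mean share over 404 intermediate amplicons was higher in the CD41-high CD61-high cells than in the other cells of replicate mouse 1, by 1.19 percentage points, and lower in main mice 3 and 4, by -0.41 and -2.31 points. It stood out because the library of the repeat experiment moved one way and both libraries of the main experiment the other. The difference between the experiments was not tested, since the repeat has 1 library with selected cells.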

How the results depend on the processing

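The count of 6 amplicons called against all other cells was 0 at 10 or more reads, by limma, by DESeq2 on cell counts, by edgeR on summed reads, with the bounds at the top 10%, with CD150-high Sca-1-high cells kept, without centring the tags, at a minimum of 200 tag UMI, with other cells matched on tag UMI and with depth covariates. Unadjusted p-values were below 0.05 at 58, 57, 20, 34, 29, 21, 40, 44, 65 and 68 amplicons there. The count was 13 after thinning, 29 with bounds at the top 25% and 19 against cells high for neither, and 0 to 16 leaving out 1 library.

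The library pairs both populations of a comparison. Fits with no replicate block gave 0 calls against all other cells, CD150-high Sca-1-high cells and CD41-only cells, 44 for CD61-only and 0 for CD41-only cells against cells high for neither, and 0 for the CD150 split.

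Leaving out 1 library gave 104 to 147 calls against CD150-high Sca-1-high cells, 0 to 7 against CD61-only cells, 21 to 63 against CD41-only cells, 57 to 214 for CD61-only and 19 to 36 for CD41-only cells against cells high for neither, and 0 to 9 for the CD150 split. Against CD41-only cells thinning gave 29 and limma 19. CD41-only against neither gave 18 at 5 or more reads and 1 by limma. The CD150 split gave 0 at 10 or more reads and by limma, with 61 and 58 unadjusted. The mean difference over intermediate amplicons was -4.13 points with the bounds at the top 10%, below 0 in all 3 libraries but with only 10, 5 and 7 selected cells. It was 0.49 with the bounds at the top 25% and 1.09 without centring the tags, both above 0 in all 3 libraries. Leaving out 1 library gave -1.36 to 0.39.

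Of the 6 amplicons, 2 changed sign on summed reads, AMPL376597 at 0.116 by edgeR and 0.164 by DESeq2 and AMPL388421 at 0.0443 and 0.0933 (natural log ratio of reads). The cause was not tested. Each of the 6 passed in 8 to 10 of 24 alternatives. Selected cells numbered 33 in main mouse 4, which limits every share there.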
